A study of Mus musculus with 4 samples.

Results

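The cells described here are Gpnmb-positive, Spp1-low cells of the healing infarct: cells sorted from infarcted mouse hearts that held at least 3 unique molecular identifiers (UMIs, each a tag that marks 1 captured RNA molecule) of Gpnmb, at most 1 UMI of Spp1, and at least 30 UMIs of C1qa, C1qb and C1qc together per 10000 UMIs. The cells were thus chosen by measured UMI counts of Gpnmb, Spp1 and C1q, so the levels of these 5 genes describe the rule and are not findings. The rule took 355 of the 31295 infarct cells with 500 to 40000 UMIs and more than 200 genes, or 89 in replicate 1, 102 in replicate 2 and 164 in replicate 3, and the series as a whole held 41533 such cells.

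Gpnmb encodes a transmembrane glycoprotein of the endosomal and lysosomal compartment, which macrophages express when they load with lipid or engulf dead cells. Spp1 encodes osteopontin, a secreted matricellular protein that infarct macrophages make in abundance. Trem2, a lipid-sensing surface receptor, signals through the adaptor Tyrobp and is often expressed with Gpnmb, and C1q is the complement recognition protein that tissue macrophages produce.

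The mice carried the Csf1r-EGFP transgene, in which a myeloid promoter drives a green reporter, and were 12 to 16 weeks old. Live EGFP+ cells negative for the neutrophil antigen Ly6G were sorted and profiled by droplet 3' single-cell RNA sequencing. The infarct group was 3 libraries, each from 1 heart taken 7 days after ligation of the left coronary artery with the remote zone cut away. Hearts of 3 mice without surgery were combined into the single baseline library, so a difference between baseline and infarct has no replicate check and none was tested. The reporter marks monocytes and some other leukocytes besides macrophages, so the gate alone does not make a cell a macrophage.

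Infarct libraries held 88157753 to 97944428 UMIs, with median depths of 8469.5 to 8556.5 UMIs per kept cell. Pairs of libraries shared 26 to 34 barcodes. Cells with B cell markers and C1q under the minimum of the rule should lack both genes. Among them a Spp1 UMI was found in 6 of 25 (24.0%) in replicate 1, 3 of 7 in replicate 2 and 10 of 36 (27.8%) in replicate 3, and a Gpnmb UMI in 0, 0 and 5. A single Spp1 UMI in a cell therefore cannot be told apart from free RNA. B cells reached the thresholds of 3 UMIs too: 4 of the 36 B cells of replicate 3 (11.1%) held at least 3 Gpnmb UMIs, and 1, 1 and 3 B cells in replicates 1 to 3 held at least 3 Spp1 UMIs. Whether these UMIs came from free RNA or from cells captured together was not tested.

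At full depth, macrophage markers that the rule did not use were present in nearly all members. Trem2 was found in 97.5% ± 1.36 and Ms4a7, a membrane protein of tissue macrophages, in 97.1% ± 2.53 of members (SD, n = 3 libraries). Csf1r was found in 98.8% ± 1.22 and Adgre1, which encodes F4/80, in 95.9% ± 2.01. Infarct cells without Gpnmb that met the same C1q minimum had Trem2 in 87.2%, Ms4a7 in 89.6%, Csf1r in 94.8% and Adgre1 in 88.5%. Those cells were shallower, so the shares were also read after thinning each cell to 4000 UMIs. Trem2 was then in 96.3% of members and 84.9% of those cells, and Ms4a7 in 96.3% and 89.2%. Adgre1 stood closer, at 85.3% and 82.6%, and Csf1r was lower in members, at 90.03% against 94.3%. Of 14 core macrophage genes, 2 were called higher in members than in those cells and 6 lower, Csf1r among the lower. Against Gpnmb+ Spp1-high cells 1 was higher and 1 lower. All 8 T and NK cell genes listed were at 0 UMIs in the members. Of 8 granulocyte genes 3 were at 0 (Cxcr2, Retnlg and Ly6g), and the list summed to 52.1 to 67.7 CPM in members and 65.3 to 87.1 CPM in Gpnmb+ Spp1-high cells, with Mmp8 and S100a8 called lower in members. Of 11 dendritic cell genes 4 were at 0 (Cd209a, Xcr1, Siglech and Itgae), and the list summed to 34.9 to 65.5 CPM in members and 37.1 to 56.2 CPM in Gpnmb+ Spp1-high cells, with Batf3 called higher and Cd209a lower in members. Of the resident cardiac macrophage genes, Lyve1 was found in 1.02% ± 1.76 and Timd4 in 0.984% ± 0.923 of members. In Gpnmb+ Spp1-high cells the shares were 0.792% and 0.207%. A UMI of Lyve1, Timd4, Cd163 or Folr2 was found in 17.6% or more of the members of each infarct library. The share was higher in Gpnmb+ Spp1-high cells in each library, at 33.1% to 38.3%, and those cells were deeper. Of 9 resident genes tested against Gpnmb+ Spp1-high cells, F13a1 and Folr2 were called lower in members and 0 higher. The 12 resident genes summed to 128 to 340 CPM in members and 265 to 305 CPM in Gpnmb+ Spp1-high cells. The 12 monocyte genes summed to 635 to 1002 CPM in members and 608 to 1083 CPM in Gpnmb+ Spp1-high cells. Ccr2, a monocyte gene, was found in 40.8% ± 7.55 of members and 40.4% ± 6.68 of Gpnmb+ Spp1-high cells. Whether the members are reparative was not tested.

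Members made up 0.856% to 1.62% of the kept cells of an infarct library (mean 1.14% ± 0.418, SD, n = 3). They were 10.1% ± 2.80 of the cells with at least 3 Gpnmb UMIs. Cells with at least 3 Gpnmb and at least 3 Spp1 UMIs, called Gpnmb+ Spp1-high here, were 2906 in number and 9.29% ± 0.335 of all cells. After each cell with at least 4000 UMIs was thinned to 4000, which left out 1291 to 1877 cells per infarct library, members were 0.994% ± 0.277 of cells and 16.1% ± 3.05 of cells with at least 3 Gpnmb UMIs. In the baseline library the rule found 12 of 10238 cells, or 0.117%.

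Members were shallower than Gpnmb+ Spp1-high cells and deeper than cells without Gpnmb. Their median depths were 10340, 9389.5 and 10086.5 UMIs in replicates 1 to 3, against 12638, 12145.5 and 12355 in Gpnmb+ Spp1-high cells and 8165, 8130 and 8160.5 in C1q-high cells without Gpnmb. A threshold in UMIs favours deep cells for Gpnmb and shallow cells for low Spp1, so the groups differ in depth by construction, and the part of depth in the results below was examined only by the repeats with thinned cells and with cells of 6000 to 12000 UMIs.

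The Gpnmb and Spp1 thresholds cut through a continuum. Cells with exactly 1 Spp1 UMI, which are members, held 11.3 ± 0.971 Fabp5 UMIs per 10000 (SD, n = 3), and cells with 2 Spp1 UMIs, just outside, held 10.7 ± 2.06. Members with exactly 3 Gpnmb UMIs held 5.83 ± 1.97 Fabp5 UMIs per 10000 and cells with 2, just outside, held 4.46 ± 0.879. Few cells lay beside the C1q minimum. The 8 members with 30 to 40 C1q UMIs per 10000, all in replicates 1 and 3, held 19.9 ± 3.48 Lgals3 UMIs per 10000. The 6 cells left out with 20 to 30 held 34.7 ± 17.6, and the 38 left out with under 20 held 69.3 ± 14.9. These are too few cells to say whether the C1q minimum cuts through a continuum as well.

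The first comparison asked what else differs between the Gpnmb-positive cells with little and with much Spp1. UMIs were summed per library and group of cells, the rule's genes and mitochondrial genes were left out, and the 3 pairs of sums were compared with edgeR's quasi-likelihood test with the library as a term. Levels are CPM, counts per 1000000 UMIs of these sums, and a log2 fold change is positive where members were higher. At a Benjamini-Hochberg adjusted p under 0.01, 133 of 10601 genes were higher in members (1.25%) and 123 lower (1.16%), 256 in all (2.41%), and the median log2 fold change over all genes was 0.0062. Beside the list counts that follow, these shares are the background.

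MHC class II genes stood higher in members. They encode the machinery that presents peptides to CD4+ T cells, and 8 of the 10 listed genes were higher and none lower, with a list median of 1.10 on the log2 scale. Cd74, the invariant chain, was at 7384, 6644 and 6521 CPM in members of replicates 1 to 3 and at 3630, 2605 and 3408 CPM in Gpnmb+ Spp1-high cells. The groups did not overlap, and the log2 fold change was 1.12 ± 0.0641 (SE; edgeR adjusted p = 9.99e-14). H2-Aa was at 2904, 2941 and 2433 CPM in members against 1428, 996 and 1291 CPM, again without overlap (log2 1.18 ± 0.0796, edgeR adjusted p = 2.91e-12). H2-Ab1 and H2-Eb1, the genes of the partner chains, had log2 fold changes of 1.16 and 1.26. With edgeR's robust form, added after the data were seen, 5 of the 10 genes were called, and H2-Aa was not (adjusted p = 0.089), while Cd74 was. Ciita, the master transcriptional activator of the class II genes, had a log2 fold change of 1.09 ± 0.139 (edgeR adjusted p = 2.30e-06), and Cd86, a costimulatory ligand, one of 0.50.

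The class II signal was uneven among members. Per cell, H2-Aa, H2-Ab1, H2-Eb1 and Cd74 together took a median of 55.8, 26.9 and 48.3 UMIs per 10000 in replicates 1 to 3. The 10th percentile was 2.12 to 2.99 and the 90th 377 to 408. In Gpnmb+ Spp1-high cells the medians were 10.1, 4.66 and 8.49, and in C1q-high cells without Gpnmb 160, 101 and 96.8. Some members therefore held almost no class II RNA, and others as much as cells without Gpnmb.

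Several other genes were higher in members. Tmem176b and Tmem176a, cation channels of the endolysosomal membrane in antigen-presenting cells, had log2 fold changes of 0.92 and 0.87. Tmem176b stood at 394, 539 and 475 CPM in members against 232, 271 and 244 CPM. Hpgd, which inactivates prostaglandins, was at 103, 127 and 176 CPM against 34.4, 71.3 and 83.5 CPM (log2 1.14 ± 0.108, edgeR adjusted p = 9.45e-09). The result for Hpgd held in 15 of 17 alternatives, with a log2 fold change as low as 0.52. Cx3cr1, the fractalkine receptor, was at 465, 465 and 495 CPM against 365, 344 and 356 CPM (log2 0.44). The transcript of Ms4a7 rose by 0.27 on the log2 scale with overlapping levels, and Trem2, at -0.21, did not pass the test (edgeR adjusted p = 0.075).

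Cytokine genes split. Of 12 tested inflammatory genes, 6 were higher and 2 lower. Il1b was at 313, 276 and 310 CPM in members against 164, 208 and 128 CPM (log2 0.90 ± 0.102, edgeR adjusted p = 2.73e-07, but 0.146 in the robust form), and Tnf at 50.5, 56.0 and 32.7 CPM against 19.8, 25.6 and 22.2 CPM (log2 1.00). Neither gene's groups overlapped. Of 17 tested chemokine ligands, 4 were higher (Ccl3, Ccl4, Ccl5 and Cxcl2) and 6 lower (Ccl2, Ccl7, Ccl8, Cxcl10, Cxcl9 and Pf4). Ccl2, which recruits monocytes, stood at 171, 172 and 124 CPM against 305, 246 and 200 CPM (log2 -0.67), and Pf4, a chemokine of platelets and tissue macrophages, at 380, 486 and 601 CPM against 810, 1378 and 715 CPM (log2 -0.91). Cxcl10 changed sign, to 0.24, when the cells were thinned before the rule. The higher level of Ccl5 held in 11 of 17 alternatives, with a log2 fold change as low as 0.029.

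Of a list of 16 immediate-early genes, which respond quickly to stimulation, and heat shock genes, 9 were higher and none lower (list median 0.34). Egr1 was at 181, 159 and 224 CPM in members against 101, 103 and 109 CPM (log2 0.86). With cells of 6000 to 12000 UMIs only, 1 of 16 was called, and without replicate 1 or without replicate 3, 4 of 16.

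Lipid-associated genes were lower in members. Of 17 genes of the TREM2 pathway and of lipid-associated macrophages, 9 were lower and only Apoe was higher, with a list median of -0.49. Fabp5, a fatty acid chaperone, was at 1329, 1072 and 949 CPM in members against 2735, 2552 and 2453 CPM, without overlap (log2 -1.21 ± 0.0670, edgeR adjusted p = 7.97e-14). Cd36, the fatty acid scavenger receptor, stood at 59.1, 28.5 and 83.0 CPM against 194, 121 and 171 CPM (log2 -1.46). Fabp4 had a log2 fold change of -1.13, Plin2, which coats lipid droplets, one of -0.56, and the galectin gene Lgals1 one of -0.63. Apoe, the apolipoprotein of cholesterol efflux, had one of 0.22 with overlapping levels.

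Lysosomal genes were lower in 7 of 32 cases and higher in none (list median -0.21), and without replicate 3 in 3. Ctsl, a cysteine protease, was at 691, 615 and 595 CPM in members against 1374, 1608 and 1226 CPM (log2 -1.12 ± 0.0725, edgeR adjusted p = 1.68e-12). Cd68, a lysosomal glycoprotein, had a log2 fold change of -0.46, Ctsb one of -0.37 and Psap, the saposin precursor, one of -0.29. Atp6v0d2, a proton pump subunit prominent in osteoclasts, was at 7.52, 8.45 and 8.48 CPM in members against 37.0, 45.8 and 45.8 CPM (log2 -2.39 ± 0.20), from 29 UMIs in members. Ctsk, the osteoclast collagenase, had a log2 fold change of -3.80, but its 3 comparator levels were 9.72, 249 and 15.2 CPM, so the value rested on replicate 2. The comparator had no C1q minimum, and among its 2616 C1q-high cells Ctsk stood at 7.09, 21.4 and 11.3 CPM. With the C1q minimum in both groups it no longer passed the test (log2 -1.29, edgeR adjusted p = 0.355). Adam8, a cell surface metalloprotease, was at 52.7, 70.8 and 75.2 CPM against 154, 131 and 141 CPM (log2 -1.07).

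Glycolytic genes were lower in 6 of 19 cases and higher in none, Gapdh by -0.40 and Ldha by -0.34 on the log2 scale. None of 18 tested was called with cells of 6000 to 12000 UMIs. Genes of S phase and mitosis were lower in 8 of 18 cases (list median -1.46). Mki67, the proliferation antigen, was at 6.45, 6.34 and 13.3 CPM against 29.9, 27.7 and 45.3 CPM, and Top2a at 7.52, 8.45 and 9.70 CPM against 26.7, 23.9 and 32.4 CPM. After thinning, 6 of these genes were tested and none called, and the histone gene Hist1h1b turned from a log2 fold change of -2.91 to 1.78. Few of these genes could be tested at equal depth, and the part of depth in their lower level was not tested further.

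**Figure D1:**
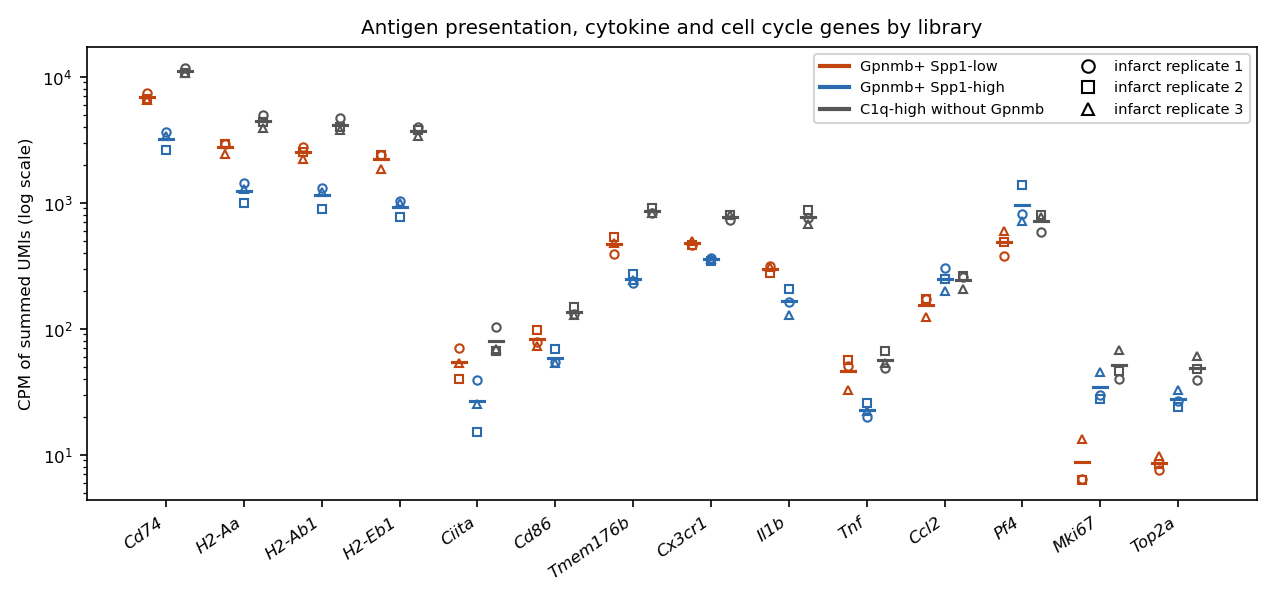
Levels of 14 antigen presentation, cytokine and cell cycle genes in CPM of summed UMIs (vertical log axis) in 3 groups of infarct cells; each symbol is 1 library and each bar the mean of 3. For Cd74, H2-Aa, H2-Ab1, H2-Eb1, Ciita, Cd86, Tmem176b, Cx3cr1 and Il1b the members lie between the Gpnmb+ Spp1-high cells below and the C1q-high cells without Gpnmb above in each library.

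The second comparison set members against C1q-high cells without Gpnmb, 18862 cells that share the C1q minimum, and asked what goes with Gpnmb among such cells. Spp1 was not capped in the comparator, where 1648, 2113 and 1640 cells in replicates 1 to 3 held at least 3 Spp1 UMIs, so the groups differ in Spp1 as well. In the same test 364 of 12301 genes were higher in members (2.96%) and 486 lower (3.95%), 850 in all (6.91%), with a median log2 fold change of -0.041. In this comparison and the next, edgeR estimated no gene-to-gene variation in the dispersion (infinite prior degrees of freedom), which makes its p-values very small, so where a p-value is given for a gene here, it is an adjusted p of limma-voom, a form chosen after the data were seen, with edgeR's beside it for Fabp5. The SEs after ± in this comparison are those of the same edgeR fit, not of limma-voom, and share its limit. With limma-voom 127 genes were higher and 84 lower. Both comparisons use the sums of the members, so their results are not independent of each other.

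Lipid-associated genes were higher in members than in cells without Gpnmb. Of the 17 genes, 13 were higher and none lower (list median 0.52), and 11 were called by limma-voom. Fabp5 was at 187, 242 and 198 CPM in the comparator against the member levels above (log2 2.46 ± 0.0760; edgeR adjusted p = 2.05e-220, limma-voom adjusted p = 5.60e-05). Trem2 was at 1320, 1513 and 1189 CPM in members against 695, 921 and 804 CPM (log2 0.78, limma-voom adjusted p = 0.00055). Lgals3, galectin-3, was at 2825, 3415 and 2658 CPM against 1144, 1298 and 1047 CPM (log2 1.39). Lpl, lipoprotein lipase, had a log2 fold change of 1.23 and Plin2 one of 0.71. Ms4a7 was 0.46 higher on the log2 scale with overlapping levels.

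Lysosomal genes were higher in 20 of 32 cases and lower in none (list median 0.39), 14 of them also by limma-voom and 12 by edgeR without replicate 3. Ctsd, the aspartic protease cathepsin D, was at 4797, 4199 and 3943 CPM in members against 1918, 1944 and 1814 CPM (log2 1.23 ± 0.0707, limma-voom adjusted p = 4.46e-05). Ctsb and the tetraspanin gene Cd63 had log2 fold changes of 0.94 each, Psap one of 0.86 and Lamp1, a membrane protein of the lysosome, one of 0.39. Of 16 proton pump subunits, 8 were higher, 2 by limma-voom. Of 14 cholesterol efflux and LXR target genes, 9 were higher and Ch25h was lower. Abcg1 had a log2 fold change of 0.53 (limma-voom adjusted p = 0.013, past the threshold only by edgeR), and Pltp one of 0.43.

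Antioxidant and iron genes were higher too. Of 10 NRF2 targets 7 were higher and none lower (list median 1.02), 3 of them by limma-voom. Gclm, a subunit of the enzyme that limits glutathione synthesis, was at 113, 90.8 and 121 CPM against 56.7, 51.6 and 53.6 CPM (log2 1.06), and Prdx1 had a log2 fold change of 0.97. Slc40a1, the iron exporter ferroportin, was at 86.0, 81.3 and 68.5 CPM against 14.4, 20.8 and 18.9 CPM (log2 2.15 ± 0.130, limma-voom adjusted p = 0.00022). Fth1, the ferritin heavy chain, had a log2 fold change of 0.67. Hmox1, which breaks down haem, had one of 1.24, but its limma-voom adjusted p was 0.032 and its comparator levels ran from 129 to 270 CPM. Against Gpnmb+ Spp1-high cells no NRF2 target of 9 tested was called by edgeR or limma-voom, while Slc40a1 was higher in members (log2 0.60).

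The promoters of 2 lysosomal genes and 1 antioxidant gene are shown because genes of both lists were higher in members than in C1q-high cells without Gpnmb. They run from 250 bases before to 50 bases after the start site, are taken from RefSeq on build GRCm38.p6, and are written 5′ to 3′ on the gene's strand. Capitals in Ctsd (chr7:142387778-142388077, minus strand) and Lamp1 (chr8:13158911-13159210, plus strand) mark the palindrome CACGTG, and in Gclm (chr3:122245307-122245606, plus strand) a match to TGACNNNGC on the opposite strand.
Ctsd: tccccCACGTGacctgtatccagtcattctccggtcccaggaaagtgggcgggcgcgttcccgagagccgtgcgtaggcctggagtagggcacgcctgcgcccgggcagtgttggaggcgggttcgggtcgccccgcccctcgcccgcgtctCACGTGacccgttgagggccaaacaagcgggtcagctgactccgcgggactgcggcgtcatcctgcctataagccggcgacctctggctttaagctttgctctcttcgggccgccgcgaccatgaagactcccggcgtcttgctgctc
Lamp1: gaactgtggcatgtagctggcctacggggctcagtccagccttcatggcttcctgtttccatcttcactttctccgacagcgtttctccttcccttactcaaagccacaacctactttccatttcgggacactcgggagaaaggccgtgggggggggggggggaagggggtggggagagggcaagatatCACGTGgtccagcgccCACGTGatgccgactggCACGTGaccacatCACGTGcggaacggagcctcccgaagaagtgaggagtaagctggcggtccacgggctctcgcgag
Gclm: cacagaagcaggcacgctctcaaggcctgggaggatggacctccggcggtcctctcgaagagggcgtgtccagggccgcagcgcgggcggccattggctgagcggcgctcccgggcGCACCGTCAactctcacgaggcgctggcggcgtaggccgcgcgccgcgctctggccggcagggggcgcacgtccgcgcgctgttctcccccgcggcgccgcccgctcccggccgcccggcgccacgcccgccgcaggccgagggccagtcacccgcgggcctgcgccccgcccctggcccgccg

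CACGTG stood in 10 of the 26 lysosomal genes searched (38.5%) and in 8.09% of the 27025 genes searched. TGACNNNGC, searched on both strands, stood in 5 of 7 NRF2 targets (71.4%) and in 14.0% of the genes searched. The counts take in listed genes that were not called, such as Cln3, Glb1, Mcoln1 and G6pdx. These matches are descriptions of the letters and say nothing of binding in these cells.

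**Figure D2:**
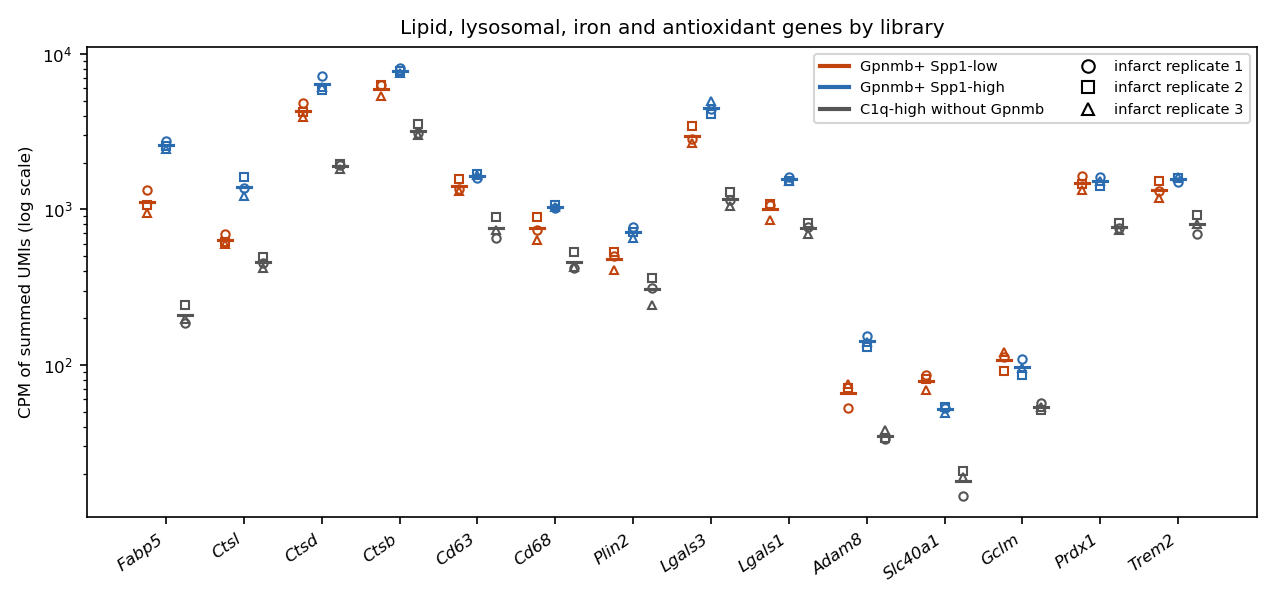
Levels of 14 lipid, lysosomal, iron and antioxidant genes in CPM of summed UMIs (vertical log axis) in the same 3 groups; each symbol is 1 library and each bar the mean of 3. Fabp5, Ctsl, Ctsd, Ctsb, Lgals3 and Adam8 rise from cells without Gpnmb through members to Gpnmb+ Spp1-high cells in each library, while Slc40a1 is highest in members.

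Class II genes were lower in members than in C1q-high cells without Gpnmb, 8 of 10 and none higher (list median -0.59), 5 by limma-voom. The class II genes were thus higher than in one comparator and lower than in the other. Il1b was at 760, 869 and 682 CPM in the comparator (log2 -1.30, limma-voom adjusted p = 0.00041), Cx3cr1 at 729, 799 and 802 CPM (log2 -0.66) and Ccr2, the receptor of Ccl2, had a log2 fold change of -1.17. Of 19 chemokine ligands 13 were lower and none higher, 4 by limma-voom, among them Ccl12, a monocyte chemoattractant, at 125, 291 and 129 CPM in members against 437, 704 and 441 CPM (log2 -1.55). Of 14 interferon-stimulated genes 9 were lower, 1 by limma-voom: Cxcl10, at 14.0, 11.6 and 21.2 CPM against 117, 172 and 135 CPM.

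Of the 16 immediate-early and heat shock genes 12 were lower and none higher (list median -0.38), 5 by limma-voom. Genes of S phase and mitosis were lower in 15 of 18 cases, 10 by limma-voom, but in 1 of 18 after thinning and in 1 of 18 with cells of 6000 to 12000 UMIs. Mki67 had a log2 fold change of -2.46. Resident macrophage genes were lower in 7 of 12 cases and monocyte genes in 7 of 12, 1 of each by limma-voom. Mrc1, the mannose receptor, was at 299, 416 and 388 CPM against 513, 544 and 587 CPM (log2 -0.54).

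Of 13 growth factor genes 3 were higher and 1 lower in members than in C1q-high cells without Gpnmb, 2 by limma-voom. Of 16 matrix and matricellular genes 4 were higher (Col1a1, Col3a1, Dcn and Ecm1) and 3 lower (Fn1, Thbs1 and Vcan), none by limma-voom. Col1a1, Col3a1 and Dcn are also on the fibroblast list, whose sum, given below, stood high only in the members of replicate 3. Igf1, a trophic factor of healing infarcts, was at 413, 432 and 374 CPM in members against 203, 262 and 253 CPM in cells without Gpnmb (log2 0.81, limma-voom adjusted p = 0.0020), and at 385, 424 and 439 CPM in Gpnmb+ Spp1-high cells, where it did not pass the test (log2 -0.03). Gdf15, a stress-induced cytokine, was higher in members in both comparisons, by 0.80 and 1.00 on the log2 scale. Against Gpnmb+ Spp1-high cells its groups overlapped, at 154, 296 and 128 CPM in members against 89.8, 131 and 98.9 CPM. That result held in 13 of 17 alternatives, with log2 fold changes from 0.56 to 1.07. In replicate 2, members with 0 Spp1 UMIs stood at 466 CPM of Gdf15 and those with 1 at 99.8 CPM. Mmp12, the macrophage elastase, had a log2 fold change of 1.49 against cells without Gpnmb, with member levels of 124, 159 and 50.9 CPM and a limma-voom adjusted p of 0.023.

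Integrins, the receptors the series was made to study, showed little difference in the comparisons above. None of 12 tested integrin genes was called against Gpnmb+ Spp1-high cells, by edgeR or limma-voom, and of 13 against C1q-high cells without Gpnmb only Itgam was, lower by edgeR alone (limma-voom adjusted p = 0.089). Itga5, a chain of the fibronectin receptor, was at 54.8, 51.7 and 33.9 CPM in members, 60.4, 49.2 and 48.3 CPM in Gpnmb+ Spp1-high cells and 47.6, 43.5 and 43.9 CPM in C1q-high cells without Gpnmb. The groups overlapped, with log2 fold changes of -0.20 ± 0.13 and 0.05 ± 0.13. Against all infarct cells without Gpnmb, C1q-low ones included, edgeR called 2 of 14 integrin genes higher in members (Itga6 and Itgb5). It called 3 lower (Itgal, Itgam and Itgb7), and 8.87% of all genes were called there in either direction.

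**Figure D3:**
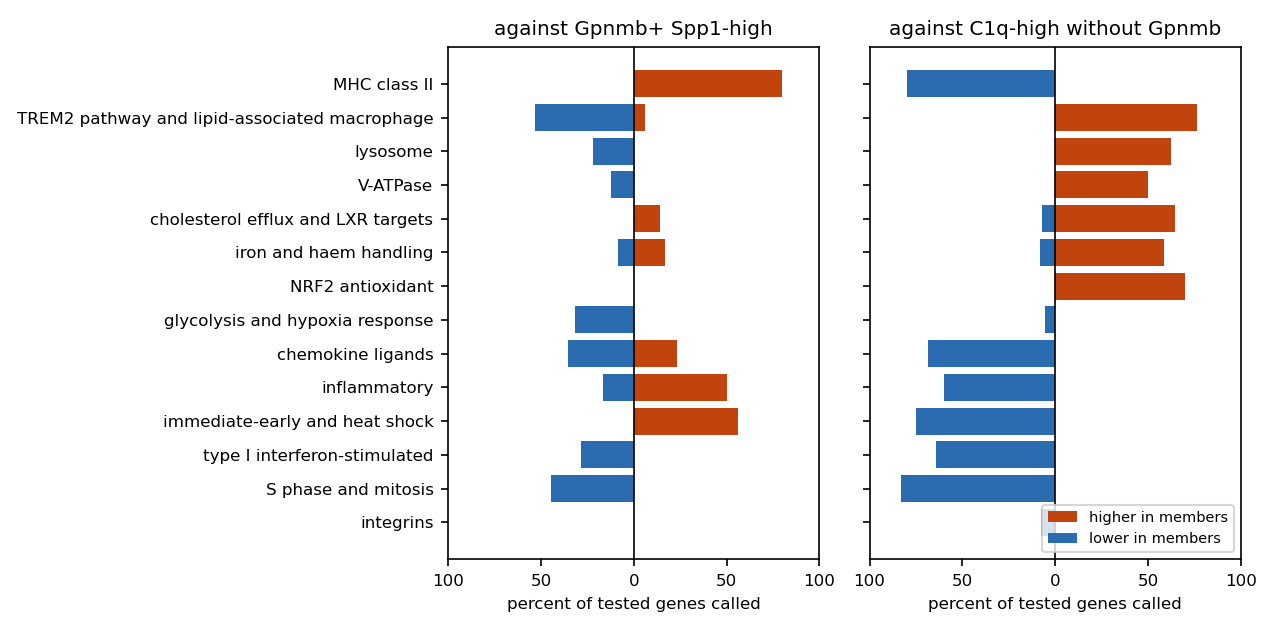
Share of the tested genes of 14 lists called higher (right) or lower (left) in members at an edgeR adjusted p under 0.01, in percent, against Gpnmb+ Spp1-high cells (left panel) and against C1q-high cells without Gpnmb (right panel). The MHC class II bar points to higher in the left panel and to lower in the right, and the lipid and lysosome bars the other way.

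Against all 24230 infarct cells without Gpnmb, which include C1q-low cells, 466 of 12724 genes were higher in members (3.66%) and 662 lower (5.2%), 1128 in all (8.87%). Among calls in the same direction in all 3 libraries with a mean of at least 50 CPM in the higher group, Slc40a1, Fabp5, Anpep, Syngr1 and Il7r had the highest log2 fold changes, from 1.59 to 2.40, and the granulocyte genes S100a9 and S100a8 the lowest, at -5.98 and -5.34. Vcan and Hp, both on the monocyte list, had log2 fold changes of -3.10 and -2.77.

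Levels were also read over classes of Spp1 UMIs among C1q-high cells with at least 3 Gpnmb UMIs, as a description. Fabp5 was at 1062 ± 292 CPM in the 189 cells with 0 Spp1 UMIs, 1191 ± 108 in the 166 with 1 and 1122 ± 223 in the 157 with 2 (SD, n = 3). It was at 1377 ± 129 in the 682 with 3 to 9, 1723 ± 67.9 in the 820 with 10 to 29 and 3369 ± 57.8 in the 1114 with 30 or more. Cd74 was at 7735 ± 453, 5788 ± 1243, 5849 ± 837, 4859 ± 441, 3348 ± 467 and 2382 ± 512 CPM in the same classes. Members with 0 and with 1 Spp1 UMI differed in Fabp5 by less than the spread between libraries. In Cd74 the members with 1 were lower in each library, at 7187, 4811 and 5365 CPM against 7597, 8241 and 7368 CPM with 0. Neither gene had a step between 1 and 2 Spp1 UMIs, the threshold of the rule. Median depth rose over the classes as well, from 9453 to 10735 UMIs at 0 to 13876 to 14862 at 30 or more.

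**Figure D4:**
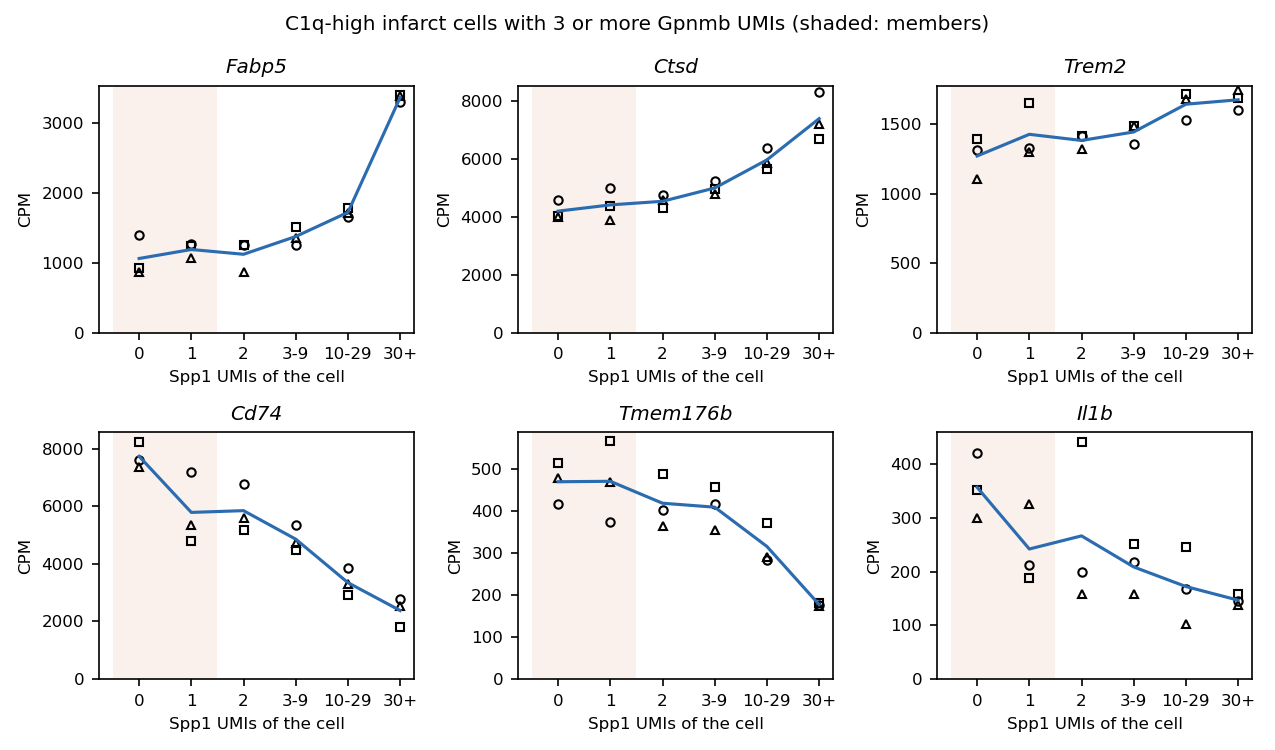
Levels of 6 genes in CPM (vertical axis) by the number of Spp1 UMIs of the cell (horizontal axis) in C1q-high infarct cells with at least 3 Gpnmb UMIs; circles, squares and triangles are replicates 1, 2 and 3, the line is their mean and the shaded classes are members. Fabp5 and Ctsd rise and Cd74, Tmem176b and Il1b fall from the lowest to the highest class, with no break between 1 and 2 UMIs in Fabp5, Ctsd, Trem2 or Tmem176b.

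Over Gpnmb classes at 0 or 1 Spp1 UMI Ctsd and Fabp5 were also higher in the higher classes. Ctsd was at 1533 ± 28.7 CPM in cells with 0 Gpnmb UMIs, 2518 ± 14.1 with 1, 3350 ± 98.0 with 2, 4245 ± 392 with 3 to 5 and 4422 ± 622 with 6 or more. Fabp5 went from 147 ± 18.2 to 1618 ± 615 CPM over the same classes, and Cd74 from 13201 ± 1062 to 7464 ± 958 CPM. Cd36 was at 52.6 ± 25.1 CPM in the lowest and 65.9 ± 25.1 CPM in the highest class, a difference within the spread between libraries. Median depth rose over these classes too, from 7595.5 to 7683 UMIs at 0 to 9904 to 12011 at 6 or more.

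The hearts differed in a few genes of the members. The widest range was that of Saa3, an acute-phase protein gene, at 340, 3.17 and 471 CPM in replicates 1 to 3, followed by Arg1, arginase 1, at 110, 3.17 and 418 CPM. Slpi was at 5.37, 13.7 and 231 CPM and Marco, a scavenger receptor, at 44.1, 3.17 and 105 CPM. Replicate 2 was low in Saa3 in all groups, at 12.9 CPM in Gpnmb+ Spp1-high and 74.8 CPM in C1q-high cells without Gpnmb. Marco had the highest log2 fold change against Gpnmb+ Spp1-high cells, 3.39, but its groups overlapped and it turned to -0.24 under the stricter rule.

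Some markers of other cell types were higher in members. The 9 fibroblast genes summed to 44.1, 44.4 and 243 CPM in members of replicates 1 to 3, 39.4 to 51.6 CPM in Gpnmb+ Spp1-high cells and 60.3 to 102 CPM in C1q-high cells without Gpnmb. Only the members of replicate 3 stood high, and Col3a1, Dcn and Lum were called higher against Gpnmb+ Spp1-high cells, each in 2 of the 3 fits that left out a library. The 8 B cell genes summed to 123, 145 and 232 CPM in members, 86.4, 89.3 and 135 CPM in Gpnmb+ Spp1-high cells and 252 to 293 CPM in C1q-high cells without Gpnmb. They were higher in members than in Gpnmb+ Spp1-high cells in all 3 libraries, with Ighm called (log2 0.85). Cells with the highest doublet scores were 14.6%, 12.7% and 7.32% of members, against 8.38% to 10.4% of Gpnmb+ Spp1-high cells. Without them 7 of 9 tested class II genes remained higher, and Plac8, a monocyte gene with a log2 fold change of 1.08, turned to -0.85. Scrublet, the tool that gave the scores, called only 0, 0 and 3 infarct cells in replicates 1 to 3. High scores may therefore not mark doublets, and leaving them out cannot show what doublets contribute. The part of doublets and free RNA in these and the other values was not tested.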

How the data were processed

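The deposited UMI counts per gene and cell were used; the authors aligned reads to mm10 with Cell Ranger (version 3.1.0 per the file headers, 3.0.1 in the submitters' processing notes), and the authors' integration was not used. Cells were kept by the study's stated limits on UMIs and genes; the study's own set of analysed cells was not used here. UMI counts were summed per library and group and tested with edgeR 4.0.16 (glmQLFit in its default form, TMM, filterByExpr, library as a term) in R 4.3.3; Benjamini-Hochberg adjusted p under 0.01 was a call. The sums of a pair came from 1 heart, and deviations of same-numbered sums correlated at 0.293 to 0.654. limma 3.58.1 (voom), edgeR with legacy off and robust edgeR were added after the results of the default form had been seen; the default form, fixed earlier, was kept as the main test. Members and gene lists were chosen with earlier results of these data known. Named genes were, per comparison, the 15 highest and 10 lowest log2 fold changes among calls of the same direction in all 3 libraries with a mean of at least 50 CPM, and listed genes with their list's counts. Scrublet called 0, 0 and 3 infarct cells, so it had not worked, and the highest scores (8 per 1000 for every 1000 cells) were left out as an alternative. SDs cover 3 libraries. The tests compare sums from 3 hearts, but edgeR's p-values and SEs draw on a dispersion shared over genes. Its prior degrees of freedom were 28.6 against Gpnmb+ Spp1-high cells and infinite in both comparisons with cells without Gpnmb. These p-values therefore do not measure each gene's own spread between hearts alone.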

Additional observations from a re-analysis of the deposited data

How the results depend on the processing

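Directions of the named genes held under most alternatives, while counts depended on depth, cell number and the form of the test. Against Gpnmb+ Spp1-high cells, 133 genes were higher and 123 lower; the DESeq2 Wald test gave 45 and 51, thinning to 4000 UMIs 46 and 74, cells of 6000 to 12000 UMIs 17 and 14, the stricter rule (at least 6 Gpnmb and 0 Spp1 UMIs) 36 and 37, leaving out cycling cells 73 and 60, a C1q minimum in both groups 99 and 98, and no filter on low counts 217 lower. Leaving out 1 library gave 76 to 146 higher and 90 to 125 lower. Against all cells without Gpnmb, 466 and 662 became 189 and 285 after thinning, 290 and 424 in the depth range and 108 and 149 under the stricter rule, with 263 lower by DESeq2, and leaving out 1 library gave 280 to 375 higher and 406 to 511 lower. Against C1q-high cells without Gpnmb, 364 and 486 became 150 and 191, 226 and 244, and 85 and 129, with 240 and 162 by DESeq2, and leaving out 1 library gave 184 to 273 higher and 235 to 363 lower.

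The library term is a replicate block: without this pairing the counts fell to 11 and 15, 93 and 83, and 63 and 52 in the 3 comparisons.

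Among the forms added after the data were seen, limma-voom gave 112 and 88 against all cells without Gpnmb and 127 and 84 against the C1q-high ones, and edgeR with legacy off gave 434 lower against all cells without Gpnmb. Of the 364 higher and 486 lower genes, 122 and 79 were called in all 4 forms; of the 133 and 123 against Gpnmb+ Spp1-high cells, 99 and 84 were, but 39 and 48 were called in each fit that left out a library, and 30 and 43 in all 4 forms and in each of those fits.

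Signs turned for Marco (-0.24) and Igkc (0.60) under the stricter rule, for Plac8 (-0.85) without high doublet scores, for Hist1h1b (1.78) and Cxcl10 (0.24) after thinning, and for Mki67 against all cells without Gpnmb (0.029) without cycling cells. The share of members was 0.197% under the stricter rule, and 2.90% of the cells with at least 6 Gpnmb UMIs there. Of cells with at least 3 Gpnmb UMIs it was 13.6% in the depth range and 16.1% after thinning. The causes were not tested.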

Other observations

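In the baseline library the 12 cells that met the rule had a median depth of 15200.5 UMIs, and 7 of them were among the cells with the highest doublet scores (58.3%). With 1 library and 12 cells these values have no replicate check.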
